A study of Homo sapiens with 6 samples.

Results

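The 10 genes described here handle iron in cells, and they were followed in HaCaT, a line of immortalised human keratinocytes, after an siRNA against PSENEN: the metalloreductase family STEAP1, STEAP2, STEAP3 and STEAP4, the iron importers TFRC and SLC11A2, the ferritin subunits FTH1 and FTL, the exporter SLC40A1 and the regulator IREB2. They were chosen by name, as the STEAP family and the core of iron uptake, storage, export and sensing, after STEAP1 had stood out in this same comparison. Of the 10, 9 are among the 27988 genes that the deposited transcripts name, and no line names SLC40A1 in any library. A gene's level is the sum of TPM, an abundance normalised for transcript length and library depth, over the transcripts that carry its name. Total RNA was sequenced in 3 libraries of cells transfected with PSENEN siRNA and in 3 libraries of cells transfected with a mismatch siRNA, the negative control. Cells of both groups grew in high glucose medium with 10% fetal calf serum, and the labels give 100 pmol for the PSENEN siRNA. RNA was taken at 48 h and at 72 h, and the labels do not say which time the sequenced RNA came from. Another group described in the labels, with transfection reagent alone, was not analysed here. All libraries come from a single cell line, and the labels do not say whether those of a group came from separate cultures, so the p-values measure the spread between these libraries only.

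Iron enters keratinocytes, as other cells, mainly bound to transferrin. The transferrin receptor TFRC carries it into endosomes, a STEAP enzyme reduces ferric to ferrous iron there, and SLC11A2 moves ferrous iron into the cytosol. Ferritin, a shell of FTH1 and FTL subunits, stores what is not used, and ferroportin, the product of SLC40A1, exports it. Iron regulatory proteins, one of them the product of IREB2, bind a stem loop called the iron-responsive element when iron is low. Binding in the 5′ UTR blocks translation, and binding in the 3′ UTR protects the RNA from decay.

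The matches are shown to tell which of the 10 genes hold letters like those of the known RNA signal of this system. Protein-coding transcripts of GENCODE 29 (GRCh38) were searched, on the transcript strand only. The search looked for an unpaired C, any 5 bases, the loop letters CAGTG and then A, C or T. At least 4 of the 5 bases before the loop had to face a base after it that can pair, G with T included. All 5 pairs were present in FTH1, FTL, SLC40A1 and TFRC, and 4 of the 5 pairs in SLC11A2 and IREB2. Among 19669 protein-coding genes, 1.09% hold the letters with all 5 pairs and 7.98% with at least 4. No protein-coding transcript of STEAP1, STEAP2, STEAP3 or STEAP4 holds them, and transcripts of other types were not searched. A match describes letters and not a working site. The lines below give each match 5′ to 3′, with the bulged C and the loop in capitals.
FTH1, 5′ UTR, chr11:61967575-61967601, minus strand: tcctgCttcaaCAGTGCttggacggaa
FTL, 5′ UTR, chr19:48965336-48965362, plus strand: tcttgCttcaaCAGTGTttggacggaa
SLC40A1, 5′ UTR, chr2:189580662-189580688, minus strand: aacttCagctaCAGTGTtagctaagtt
TFRC, 3′ UTR, chr3:196050980-196051006, minus strand: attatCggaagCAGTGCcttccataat
TFRC, 3′ UTR, chr3:196050576-196050602, minus strand: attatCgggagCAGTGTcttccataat
TFRC, 3′ UTR, chr3:196050511-196050537, minus strand: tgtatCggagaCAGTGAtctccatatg
TFRC, 3′ UTR, chr3:196050464-196050490, minus strand: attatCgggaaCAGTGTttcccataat
SLC11A2, 3′ UTR, chr12:50988270-50988296, minus strand: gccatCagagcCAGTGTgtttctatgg
IREB2, 3′ UTR, chr15:78500970-78500996, plus strand: atttgCtttcaCAGTGAtgagtgagag
Each match lies within 1 exon. The storage and export genes hold theirs in the 5′ UTR, and the uptake genes and IREB2 in the 3′ UTR.

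Depth, estimated per library as the ratio of coverage to FPKM, came to 9.16 to 11.9 gigabases of aligned sequence with PSENEN siRNA and 11.5 to 15.6 gigabases with mismatch siRNA. No counts are given in the files used here, so no counting intervals are given. PSENEN, the targeted subunit of γ-secretase, was at 1.75, 2.08 and 1.50 TPM in PSENEN siRNA libraries 1 to 3, against 6.58, 8.85 and 6.55 TPM in mismatch siRNA libraries 1 to 3. Its log2 change was -1.58 ± 0.18 (SE, limma adjusted p = 0.0471), and without any 1 library the limma adjusted p was 0.106 to 0.147. All 12 keratinocyte markers were detected, with a summed level of 3709.8 to 4563 TPM with PSENEN siRNA and 3886 to 8311 TPM with mismatch siRNA. The sum depends strongly on KRT14, at 675, 3913 and 146 TPM in mismatch siRNA libraries 1 to 3, against 1313 to 1559 TPM with PSENEN siRNA. The source of that spread was not tested. Of 13 markers of fibroblasts, melanocytes, immune and endothelial cells, 9 have no line in any library, PTPRC, MLANA and PECAM1 among them, and the sum of the other 4 was 0.460 to 1.16 TPM with PSENEN siRNA and 1.18 to 1.74 TPM with mismatch siRNA. Of the 12 keratinocyte markers, 6 (KRT5, KRT17, TP63, PKP1, DSG3 and SFN) were lower in every PSENEN siRNA library than in every mismatch siRNA library. Of all 15647 genes tested, 2138 were lower in this way. None of the 6 markers passed the adjusted test, and their part in the results on iron genes was not tested. Over all 15647 genes tested, 64 passed an adjusted p of 0.05, 20 of them higher and 44 lower, and the median log2 change was -0.04.

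STEAP1 was the only one of the 10 genes to pass the test, and its RNA was 2.45 times as high with PSENEN siRNA. FTL was higher, and IREB2, SLC11A2 and STEAP4 were lower, in every PSENEN siRNA library than in every mismatch siRNA library, but none of these passed. By named transcripts, TFRC, STEAP2 and STEAP3 overlapped between the groups, FTH1 gave no usable value in 1 library, and SLC40A1 was not detected. With transcripts lacking the gene's name counted, STEAP2 was higher in every PSENEN siRNA library but did not pass. Of the 10 genes, 9 reached at least 1 TPM in at least 3 libraries and entered the fit. The test called 1 of these 9 genes, where it called 0.409% of all genes, and 5 of the 9 did not overlap between groups, where 21.9% of all genes did not. STEAP4, one of the 5, reached 1 TPM only in mismatch siRNA libraries, where it is high. Since STEAP1 was known from this contrast when the genes were chosen, these counts describe the libraries and are not independent evidence. The median log2 change of the 9 was -0.26.

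**Figure D1:**
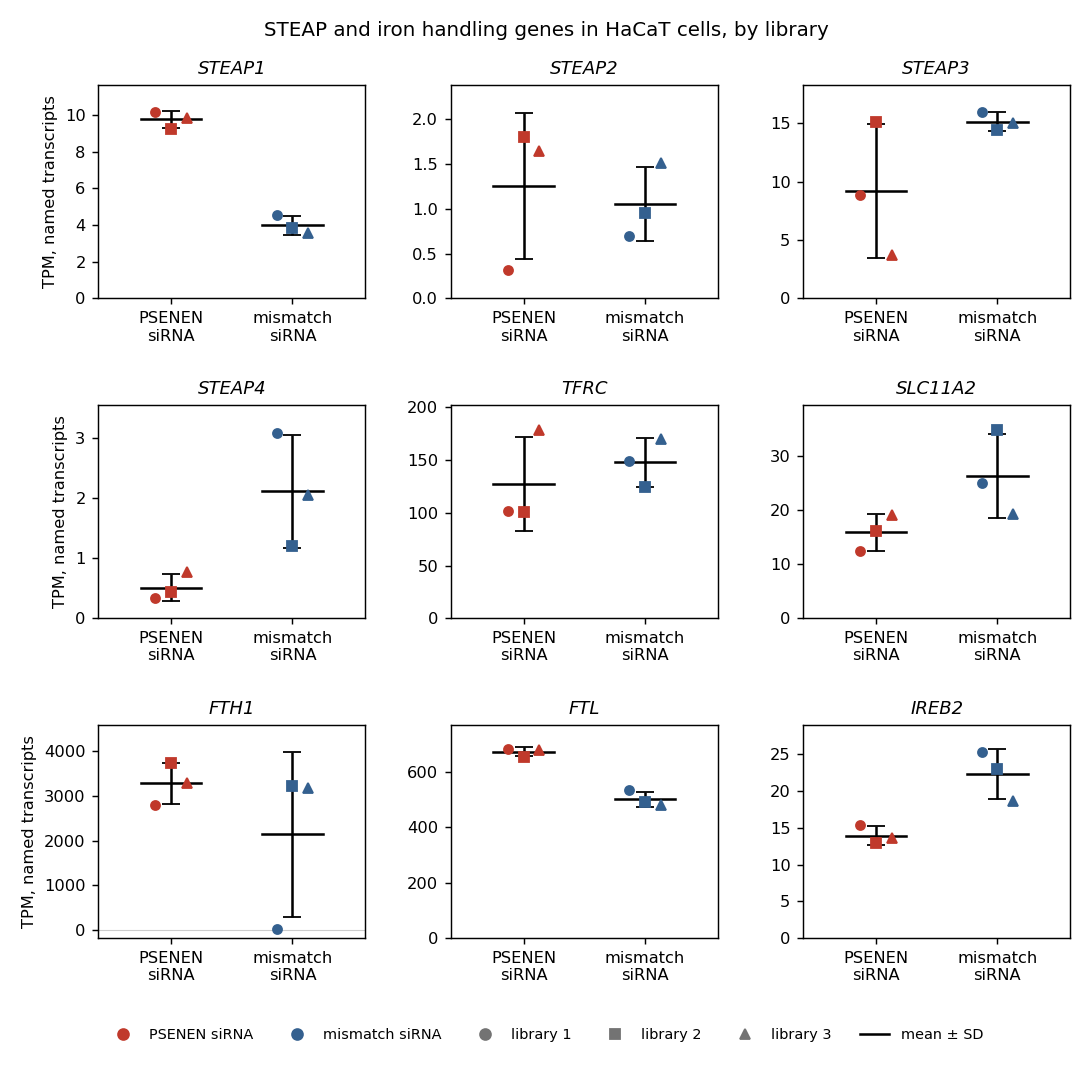
Level of each gene (y axis, TPM summed over named transcripts, each panel with its own scale) in the 3 PSENEN siRNA libraries (red, left) and the 3 mismatch siRNA libraries (blue, right), with the library number as the symbol and bars for mean ± SD. The groups are apart for STEAP1, with 9.26 to 10.2 TPM against 3.56 to 4.55 TPM, and for FTL, IREB2, STEAP4 and, by a small gap, SLC11A2; the FTH1 point near 0 is a library whose FTH1 RNA was assembled without the gene's name.

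STEAP1 encodes a heme protein of the plasma membrane and endosomes that lacks the NADPH-binding domain of its relatives and is thought to take electrons from them. Its level was 10.2, 9.26 and 9.84 TPM in PSENEN siRNA libraries 1 to 3, against 4.55, 3.84 and 3.56 TPM in mismatch siRNA libraries 1 to 3. Every PSENEN siRNA library stood above every mismatch siRNA library, and the libraries within each group lay close together. The means were 9.76 ± 0.468 TPM with PSENEN siRNA and 3.99 ± 0.511 TPM with mismatch siRNA (SD, n = 3 each), and the log2 change on the log2(TPM + 1) scale was 1.11 ± 0.14 (SE, limma adjusted p = 0.0481). The adjusted p lay close to the threshold, and leaving out any single library raised it to between 0.0952 and 0.164, with log2 changes of 1.05 to 1.19. Under 7 other settings, among them a pseudocount of 0.1 or 5 and no filter on low genes, it was 0.0510 to 0.0725. In RNA from whole cultures, more RNA per cell and more cells with the RNA cannot be told apart.

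STEAP1 (chr7:90154375-90164829) has a near copy on the same chromosome, STEAP1B, which no line names in any library. Of the 31-base words of STEAP1's annotated transcripts, 33.5% also occur in STEAP1B, so reads could in principle have been assigned to either. Coverage was therefore read exon by exon in the main transcript, ENST00000297205, which took 95.0% ± 2.34 of STEAP1 TPM with PSENEN siRNA and 97.2% ± 1.82 with mismatch siRNA (SD, n = 3 each). Exon 5, of 351 bases, shares none of its words with any other annotated gene. Its coverage per base and aligned gigabase was 3.32, 2.77 and 2.91 in PSENEN siRNA libraries 1 to 3, against 1.54, 1.23 and 1.25 in mismatch siRNA libraries 1 to 3. The groups were apart there too, at a ratio of means of 2.24. Exon 3, of 513 bases, shares 52.0% of its words with the copy, and its coverage was 4.74, 4.06 and 4.48 with PSENEN siRNA, against 1.91, 1.48 and 1.42 with mismatch siRNA. The ratio of means was 2.75 in exon 3, 2.33 in exon 2 and 2.70 in exon 4. In exons 2 to 5 the groups did not overlap (exact two-sided permutation p = 0.1 for each, the smallest that 3 against 3 libraries allow). Exon 1 was thinly covered, at 0.260 to 0.701 with PSENEN siRNA and 0.200 to 0.343 with mismatch siRNA, and there the groups overlapped (exact permutation p = 0.2). The difference was thus also present in the exon that the copy does not share.

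**Figure D2:**
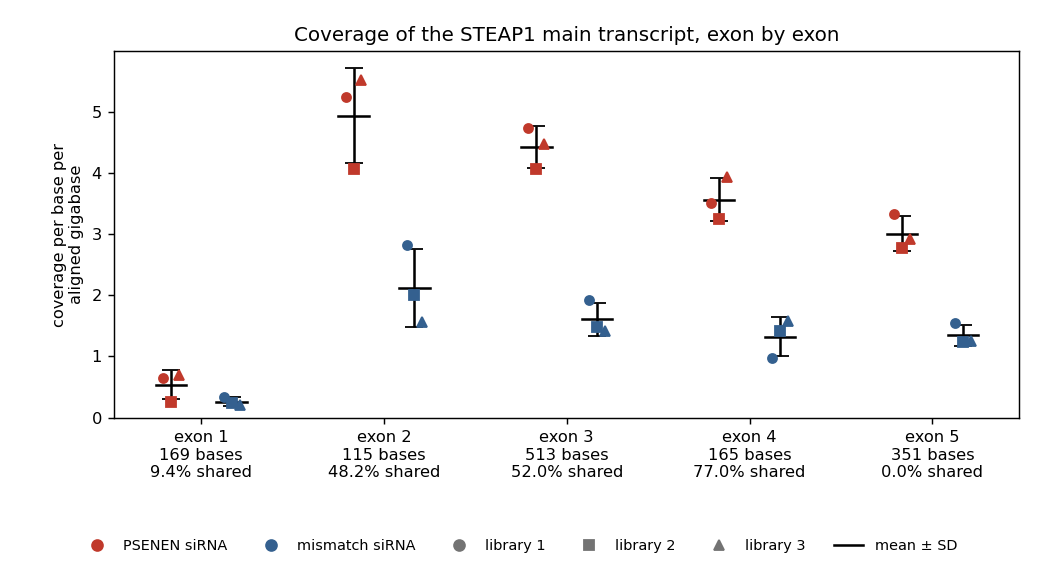
Coverage per base and aligned gigabase (y axis) of each exon of the main STEAP1 transcript in PSENEN siRNA libraries (red, left of each pair) and mismatch siRNA libraries (blue), with mean ± SD and, under each exon, its length and the percentage of its 31-base words found in another gene. The groups are apart in exons 2 to 5, also in exon 5, which shares no word and averaged 3.001 with PSENEN siRNA and 1.34 with mismatch siRNA.

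The listed genes beside STEAP1, STEAP2 and STEAP4 on chromosome 7, taken as a single list, did not pass the test. STEAP1 lies next to STEAP2, CFAP69 and GTPBP10, and STEAP4 lies closer to the centromere on the same arm. GTPBP10, a GTPase of the mitochondrial ribosome, was at 5.51, 3.61 and 6.49 TPM with PSENEN siRNA, against 3.56, 3.49 and 1.50 TPM with mismatch siRNA. Its groups were apart by a narrow gap (log2 change 0.71 ± 0.31, limma adjusted p = 0.410). CDK14, a cyclin-dependent kinase, averaged 1.97 TPM with PSENEN siRNA and 1.22 TPM with mismatch siRNA and was also apart between groups (log2 change 0.42, limma adjusted p = 0.394). SRI, the calcium-binding protein sorcin and the most abundant gene of this joint list, averaged 26.8 TPM with PSENEN siRNA and 28.3 TPM with mismatch siRNA. The remaining tested genes, CLDN12, DBF4 and SLC25A40, overlapped between groups, with log2 changes of -0.03, 0.02 and 0.83. GTPBP10 and CDK14 were chosen after their values were seen. Of 12 neighbours of STEAP1, STEAP2 and STEAP4 listed, 6 were tested, 0 passed, and the median log2 change of the 6 was 0.22.

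The genes whose values over the 6 libraries lay nearest to those of STEAP1, by root mean square distance of centred log2(TPM + 1), were ATP5O, HMGN1P12 and HMGN5, at distances of 0.0561, 0.0735 and 0.0938. ATP5O, a subunit of mitochondrial ATP synthase, was at 68.8, 64.0 and 69.0 TPM in PSENEN siRNA libraries, against 37.3, 32.4 and 28.4 TPM in mismatch siRNA libraries. HMGN5, a nucleosome-binding protein, was at 5.57 to 6.32 TPM with PSENEN siRNA and 2.37 to 2.89 TPM with mismatch siRNA. HMGN1P12 is named as a pseudogene of a related nucleosome-binding protein and was at 1.52 to 2.06 TPM with PSENEN siRNA and 0.133 to 0.473 TPM with mismatch siRNA. HMGN1P12 thus entered the test through the PSENEN siRNA libraries alone, where it is high. ATP5O passed the test, and HMGN1P12 and HMGN5 did not (limma adjusted p = 0.0863 and 0.0746). ATP5O, HMGN1P12 and HMGN5 were picked for likeness to STEAP1, so their difference between groups follows from the choice.

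STEAP2, STEAP3 and STEAP4 are complete metalloreductases that reduce iron and copper with electrons from NADPH. By named transcripts, in mismatch siRNA libraries STEAP3 had the highest level of the 4 relatives, then STEAP1, then STEAP4 and STEAP2, which overlapped each other. In PSENEN siRNA libraries STEAP1 and STEAP3 overlapped, and STEAP2 and STEAP4 were both under 2 TPM. With assembled transcripts that share an intron added, STEAP3 was above STEAP1 in PSENEN siRNA libraries too, at 13.2 to 19.5 TPM against 9.26 to 10.2 TPM, and STEAP2 reached 3.06 TPM. Some assembled transcripts of these genes do not carry the gene's name, so each gene is also given by exon coverage, the mean coverage of a gene's annotated exons by every assembled transcript on its strand whether named or not, scaled to the same total in each library. That measure was chosen after the data were seen. With it 145 of 20162 genes passed the test, or 0.719%, and 22.5% did not overlap between groups; STEAP1 again was the only one of the 10 genes to pass (limma adjusted p = 0.0258).

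STEAP2 was at 0.316, 1.80 and 1.64 TPM in PSENEN siRNA libraries, against 0.691, 0.955 and 1.50 TPM in mismatch siRNA libraries. PSENEN siRNA library 1 was the lowest of all 6 and the groups overlapped (log2 change 0.08 ± 0.35, limma adjusted p = 0.945). That library held a further STEAP2 transcript without the gene's name, of 6 exons, at 2.74 TPM. With transcripts that share an intron added, STEAP2 was at 3.06, 2.77 and 1.64 TPM with PSENEN siRNA, against 1.31, 0.955 and 1.50 TPM with mismatch siRNA. The groups were then apart, by a small gap, without passing (log2 change 0.61 ± 0.23, limma adjusted p = 0.301). By exon coverage STEAP2 was at 3.27, 3.31 and 2.07 with PSENEN siRNA, against 0.983, 0.806 and 1.54 with mismatch siRNA. By exon coverage too every PSENEN siRNA library was higher, but the difference did not pass the test (log2 change 0.88 ± 0.23, limma adjusted p = 0.155). STEAP2 lies directly downstream of STEAP1, on the same strand. An annotated antisense gene, STEAP2-AS1, overlaps both STEAP1 and STEAP2; no line names it, and whether reads were assigned by strand is not known here.

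STEAP3, the main ferrireductase of the transferrin cycle in red cell precursors of the mouse, was at 8.80, 15.1 and 3.71 TPM with PSENEN siRNA, against 15.9, 14.4 and 15.01 TPM with mismatch siRNA. The mismatch siRNA libraries lay close together, while the PSENEN siRNA libraries ranged widely and library 2 lay among the mismatch values (log2 change -0.83 ± 0.43, limma adjusted p = 0.473). In PSENEN siRNA library 3 a STEAP3 transcript of 5 exons without the gene's name held 9.85 TPM, more than the named ones. With transcripts that share an intron with the gene added, STEAP3 was at 13.2, 19.5 and 16.1 TPM with PSENEN siRNA, against 20.6, 18.9 and 17.0 TPM with mismatch siRNA. The groups then overlapped with a log2 change of -0.21 ± 0.17 (limma adjusted p = 0.615). The larger difference in named transcripts was thus not present once the unnamed ones were counted.

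STEAP4, a plasma membrane and endosomal metalloreductase first described in mouse fat cells and induced there by tumour necrosis factor, was at 0.332, 0.436 and 0.770 TPM with PSENEN siRNA, against 3.09, 1.20 and 2.05 TPM with mismatch siRNA. All PSENEN siRNA libraries were under 1 TPM and all mismatch siRNA libraries above it, so STEAP4 entered the test through the mismatch group alone. Its log2 change was -1.01 ± 0.28 and did not pass (limma adjusted p = 0.227). Exon coverage was 0.105, 1.76 and 1.05 with PSENEN siRNA, against 4.88, 1.98 and 4.23 with mismatch siRNA, again without overlap and without passing (log2 change -1.29 ± 0.41, limma adjusted p = 0.233). Library 2 of each group came close to the other in that measure. Which of its transcripts carried the TPM varied from library to library: ENST00000380079 held 0.372, 0 and 100% of STEAP4 TPM with PSENEN siRNA, against 68.6, 4.47 and 61.9% with mismatch siRNA (exact permutation p = 0.8).

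**Figure D3:**
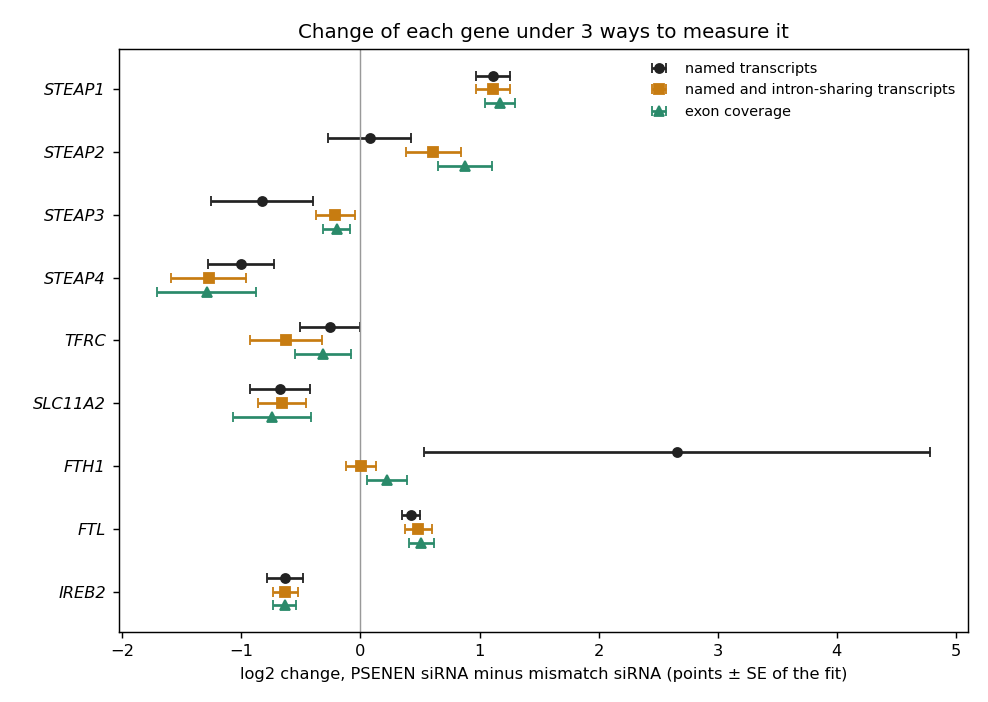
Log2 change of each detected gene (x axis, PSENEN siRNA minus mismatch siRNA, points ± SE of the limma fit) measured by named transcripts (black circles), by named and intron-sharing transcripts (orange squares) and by exon coverage (green triangles). STEAP1, FTL, IREB2, SLC11A2 and STEAP4 keep their direction and about their size in all 3, while FTH1 goes to 0.00 and STEAP3 to -0.21 once transcripts that share an intron are added, and STEAP2 goes to 0.88 by exon coverage.

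TFRC, the transferrin receptor, was the most abundant of the uptake genes, at 102, 101 and 179 TPM in PSENEN siRNA libraries, against 149, 124 and 169.9 TPM in mismatch siRNA libraries. Library 3 was the highest in each group and the groups overlapped (log2 change -0.26 ± 0.25, limma adjusted p = 0.702). The transcript that took most of the TPM also differed in library 3. ENST00000360110, of 5111 bases, held 5.62, 0.424 and 68.5% of TFRC TPM with PSENEN siRNA, against 3.98, 2.61 and 80.9% with mismatch siRNA. ENST00000392396, of 5032 bases, held 84.9, 93.1 and 21.7% with PSENEN siRNA, against 84.8, 89.7 and 11.9% with mismatch siRNA. Thus library 3 of both groups stood apart from libraries 1 and 2, and the siRNA groups did not (exact permutation p = 0.7 and 0.6 for these transcripts). Transcripts that hold the 4 matches printed above carried 93.1 to 96.2% of named TFRC TPM with PSENEN siRNA and 91.6 to 97.6% with mismatch siRNA. Nearly all of the named TPM was thus assigned to transcripts with the long 3′ UTR. In mismatch siRNA library 2, 113 and 31.8 TPM lay on unnamed transcripts of 744 and 825 bases that share introns with TFRC and do not reach the matches. With these unnamed transcripts added that library was at 269 TPM, of which 119 TPM lay on transcripts that hold the matches. The log2 change with unnamed transcripts added was -0.63 ± 0.30 (limma adjusted p = 0.400).

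SLC11A2, the divalent metal transporter DMT1, was at 12.4, 16.0 and 19.1 TPM with PSENEN siRNA, against 24.98, 34.6 and 19.2 TPM with mismatch siRNA. PSENEN siRNA library 3 lay just under mismatch siRNA library 3, so the groups were apart by a very small gap (log2 change -0.68 ± 0.25, limma adjusted p = 0.347), and by exon coverage they overlapped. The gene is known to make transcripts with and without the element. Protein-coding transcripts that hold its letters carried 0.00667, 0.00345 and 1.42% of named SLC11A2 TPM with PSENEN siRNA, against 0.246, 3.83 and 0.972% with mismatch siRNA. Named transcripts of other types were not searched, so these shares are lower bounds. Among them, ENST00000550782 and ENST00000546636 span the position of the match, and whether they hold its letters is not known here. TPM outside the transcripts found to hold the letters was spread over many transcripts and differed between libraries. ENST00000546636, a nonsense-mediated decay form, held 21.4, 43.5 and 18.3% with PSENEN siRNA, against 9.29, 18.1 and 23.4% with mismatch siRNA (exact permutation p = 0.4). ENST00000550782, a retained intron form, held 6.96, 1.17 and 30.4% with PSENEN siRNA, against 39.5, 37.7 and 4.76% with mismatch siRNA (exact permutation p = 0.3). For ENST00000550782, it was library 3 of each group that differed from libraries 1 and 2, high with PSENEN siRNA and low with mismatch siRNA.

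**Figure D4:**
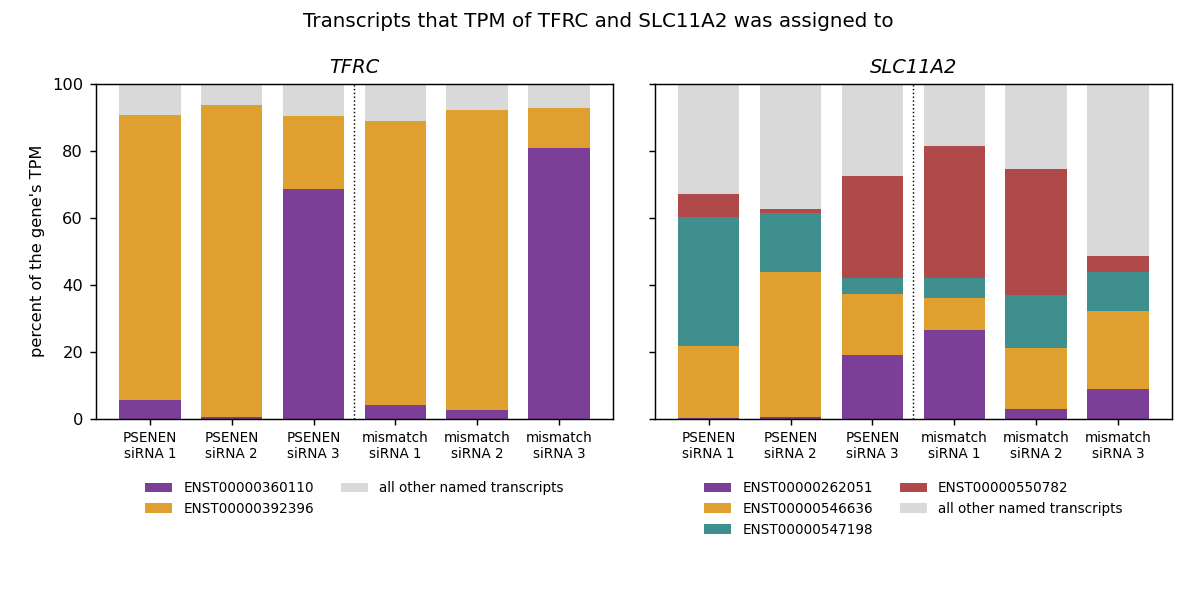
Percentage of TPM (y axis) assigned to each transcript that held at least 10% of TFRC or SLC11A2 on average, in PSENEN siRNA libraries (left of the dotted line) and mismatch siRNA libraries (right), with all other named transcripts in grey. In TFRC the share of ENST00000360110 is high in library 3 of both groups, at 68.5% with PSENEN siRNA and 80.9% with mismatch siRNA, and in SLC11A2 shares differ between libraries of a group.

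Ferritin genes were by far the most abundant of the 10. FTL, the light subunit, which promotes iron core formation, was at 683, 654 and 679 TPM in PSENEN siRNA libraries, against 532, 489 and 481 TPM in mismatch siRNA libraries. Every PSENEN siRNA library stood above every mismatch siRNA library, and libraries within a group lay close together. The means were 672 ± 16.1 TPM with PSENEN siRNA and 501 ± 27.5 TPM with mismatch siRNA (SD, n = 3 each), a ratio of 1.34, and the log2 change of 0.42 ± 0.08 did not pass the test (limma adjusted p = 0.104). Each exon had the same direction: the ratio of mean coverage was 1.36 in exon 1, 1.46 in exon 2, 1.45 in exon 3 and 1.46 in exon 4, with no overlap in any (exact permutation p = 0.1 for each). Exon 1 holds the match printed above. FTL shares 33.3% of its 31-base words with other genes, mostly with the processed copy FTLP3, so its level is uncertain to that extent. All named copies of FTL together held 32.9 to 50.6 TPM with PSENEN siRNA and 31.004 to 36.3 TPM with mismatch siRNA. That is 5.03 to 7.46% of the FTL level with PSENEN siRNA and 6.45 to 6.82% with mismatch siRNA.

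FTH1, the heavy subunit and the ferroxidase of ferritin, was at 2806, 3740.2 and 3302 TPM with PSENEN siRNA, against 12.5, 3224 and 3177 TPM with mismatch siRNA. In mismatch siRNA library 1 the main FTH1 RNA was assembled as an unnamed transcript of 4 exons and 839 bases, at 3356 TPM. With that transcript added, the library was at 3369 TPM and the log2 change was 0.00 ± 0.13 (limma adjusted p = 0.996), where named transcripts alone gave 2.66 ± 2.12 (limma adjusted p = 0.638). By exon coverage FTH1 was at 2555, 3525 and 3063 with PSENEN siRNA, against 2113, 2896 and 2824 with mismatch siRNA, and the groups overlapped. No difference in FTH1 was detectable in these libraries. The 20 named copies of FTH1 summed to 1041, 1136 and 1011 TPM with PSENEN siRNA, against 592, 838 and 826 TPM with mismatch siRNA, and these sums did not overlap between groups. FTH1 shares 27.1% of its words with other genes, so reads of the gene and of its copies cannot be fully told apart.

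SLC40A1 encodes ferroportin, the known cellular iron exporter. No transcript in any of the 6 libraries carries its name, and no assembled transcript shares an intron with it or covers its exons. Its match, printed above, is thus in a gene that was not detected here at these depths.

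IREB2 encodes iron regulatory protein 2, which binds the element and is itself degraded when iron is plentiful. It was at 15.4, 12.9 and 13.6 TPM in PSENEN siRNA libraries, against 25.3, 23.1 and 18.7 TPM in mismatch siRNA libraries. All PSENEN siRNA libraries were lower than all mismatch siRNA libraries. The means were 13.9 ± 1.30 TPM with PSENEN siRNA and 22.3 ± 3.36 TPM with mismatch siRNA (SD, n = 3 each), and the log2 change of -0.64 ± 0.15 did not pass the test (limma adjusted p = 0.164). By exon coverage IREB2 was at 12.1, 12.7 and 12.6 with PSENEN siRNA, against 21.7, 19.1 and 19.1 with mismatch siRNA, with the same log2 change of -0.64 ± 0.10 and an adjusted p just above the threshold (limma adjusted p = 0.0545). One transcript, ENST00000258886, held 86.1 to 93.4% of IREB2 TPM with PSENEN siRNA and 90.3 to 94.6% with mismatch siRNA, and these shares overlapped between groups (exact permutation p = 0.7).

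The rest of the pathway was read from 9 lists with 100 genes, of which 88 are named in the files and 76 were tested. None of the 76 passed in limma. An unadjusted p under 0.05 was found for 4, or 5.26% of them, against 13.0% of all genes tested, and 17 did not overlap between groups, or 22.4%, against 21.9% of all genes tested. Log2 changes were positive in 40 and negative in 36, with a median of 0.01. Of the 4, CPOX, an enzyme of heme synthesis, was at 25.3, 25.4 and 25.6 TPM with PSENEN siRNA, against 15.4, 18.7 and 20.4 TPM with mismatch siRNA (log2 change 0.47, limma adjusted p = 0.228). CIAO2B, a factor of cytosolic iron-sulfur assembly, was at 48.0, 41.8 and 56.2 TPM with PSENEN siRNA, against 69.6, 70.2 and 62.9 TPM with mismatch siRNA (log2 change -0.47, limma adjusted p = 0.229). CYB561, a transmembrane reductase that uses ascorbate, averaged 29.6 TPM with PSENEN siRNA and 40.3 TPM with mismatch siRNA (log2 change -0.42, limma adjusted p = 0.290). By exon coverage the log2 change of CYB561 was only -0.15 (limma adjusted p = 0.627), and with intron-sharing transcripts added it was -0.35. ABCB8, a mitochondrial transporter, averaged 8.51 TPM with PSENEN siRNA and 13.1 TPM with mismatch siRNA (log2 change -0.59, limma adjusted p = 0.289). CPOX, CIAO2B and ABCB8 were chosen after their values were seen.

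Transferrin itself, TF, has no line in any library, and neither have FTMT, the mitochondrial ferritin, and HEPH and HEPHL1, copper oxidases of iron export. HAMP, the hormone hepcidin, was under 0.08 TPM in all libraries. By named transcripts, the most abundant genes of the remaining lists showed overlapping groups, apart from PCBP1. PCBP1, a chaperone that delivers iron to ferritin, was at 181, 184 and 192 TPM with PSENEN siRNA, against 211, 218 and 204.0 TPM with mismatch siRNA, lower in each PSENEN siRNA library (log2 change -0.18, limma adjusted p = 0.392). LCN2, the siderophore-binding lipocalin, averaged 112 ± 44.7 TPM with PSENEN siRNA and 135 ± 82.4 TPM with mismatch siRNA. Its log2 change was -0.08 by named transcripts, -0.63 with intron-sharing transcripts added and -0.62 by exon coverage, and it passed in none of them. CIAO2A, which matures iron regulatory protein 1, averaged 60.8 TPM with PSENEN siRNA and 58.7 TPM with mismatch siRNA, and SDHB, a subunit of succinate dehydrogenase with iron-sulfur clusters, averaged 118 TPM with PSENEN siRNA and 113 TPM with mismatch siRNA. HSPA9, the mitochondrial chaperone of cluster transfer, PGRMC1, a heme-binding membrane protein, and ATOX1, the copper chaperone of the secretory pathway, had log2 changes of 0.00, -0.09 and -0.03. BMPR2, a receptor of the pathway that induces hepcidin, was the only tested gene of its list, at 10.7, 10.5 and 9.68 TPM with PSENEN siRNA, against 1.82, 11.8 and 11.1 TPM with mismatch siRNA, where library 1 stood apart. Its log2 change was 0.57 by named transcripts, -0.24 with intron-sharing transcripts added and -0.11 by exon coverage. Values of PCBP1, CIAO2A, SDHB, HSPA9, PGRMC1 and ATOX1 moved little between these measures. STEAP1B is described with STEAP1.

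**Figure D5:**
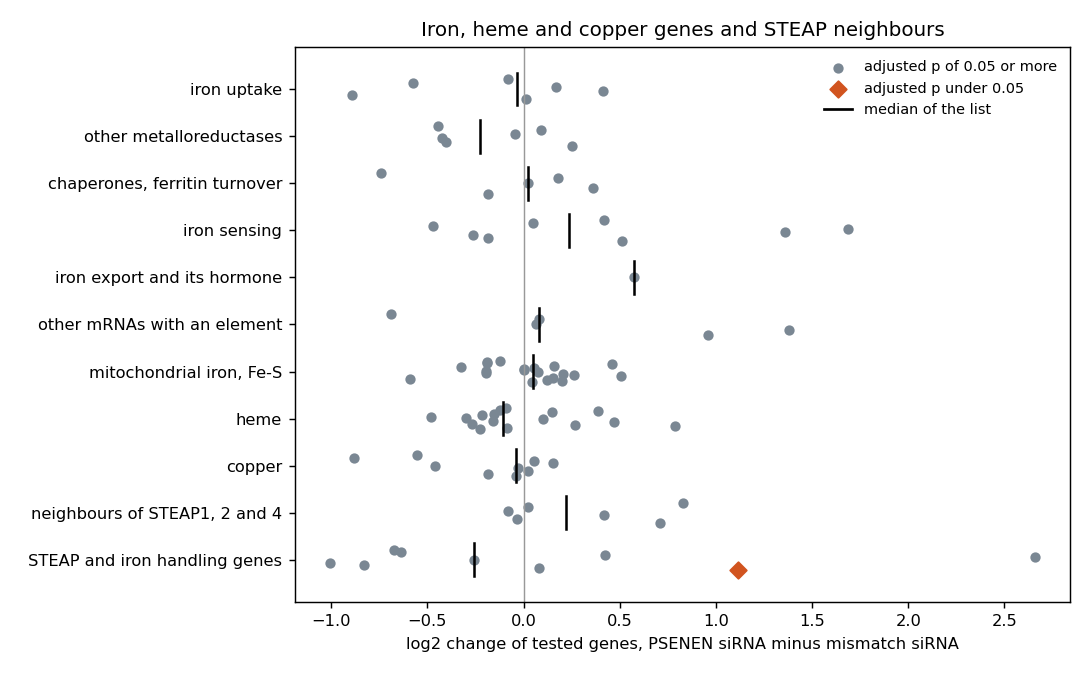
Log2 change of each tested gene (x axis, PSENEN siRNA minus mismatch siRNA) in 9 lists of iron, heme and copper genes, among the neighbours of STEAP1, STEAP2 and STEAP4 on chromosome 7, and in the 9 tested STEAP and iron handling genes (bottom row), with the median of each list as a black bar. STEAP1, at 1.11, is the only gene shown with an adjusted p under 0.05 (orange diamond), and the point at 2.66 is FTH1, whose named transcripts miss most of its RNA in 1 library.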

How the data were processed

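The authors deposited 1 StringTie assembly per library, with TPM, FPKM and coverage for each transcript, and no read counts; per the files themselves, StringTie is the source of every line. The aligner, the StringTie version and its options, the strand setting and the length of reads are, for these files, not given in the sources used here. Bowtie 0.12.2 is named in the submitters' processing notes, together with mm8 and mm9, builds of the mouse genome, while the files hold human transcripts. Of 92476 named reference transcripts, 92263 were in GENCODE 29 (GRCh38) and 98.1% had the same position there. TPM summed to 886394 to 909066 per library and was left as deposited, and 66.4 to 68.6% of it lay on named reference transcripts. Depth was estimated as coverage over FPKM.

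Gene values were sums of TPM over transcripts carrying the gene's name. Genes reaching 1 TPM in 3 or more libraries were compared on log2(TPM + 1) by limma (version 3.58.1, R version 4.3.3) with a trend on mean level and no term but group, leaving 4 residual degrees of freedom, two-sided, with Benjamini-Hochberg adjustment over 15647 genes and a threshold of 0.05. The scale understates changes of low genes. Genes and lists were chosen with earlier results of these data known. Named are the 10 genes, PSENEN, STEAP1B, from each list the called genes or else the most abundant tested one, the 3 genes nearest to STEAP1, and transcripts with at least 10% of a gene's TPM. Other genes named, among them GTPBP10, CDK14, CPOX, CIAO2B, ABCB8, TF, FTMT, HEPH, HEPHL1, HAMP and cell type markers, were chosen outside this rule after their values were seen. Single values were compared by exact two-sided permutation tests. Exon coverage and transcripts that share an intron were read from the same files, and shared sequence was measured in 31-base words of annotated transcripts. The steps were tested on simulated data. Alternatives were a pseudocount of 0.1 or 5, a minimum of 5 TPM or none, FPKM, assembled bases, intron-sharing transcripts added, TPM rescaled to its nominal total, no trend, quantile normalization, median-of-ratios scaling, the replicate number as a block, each library left out and, added after seeing the data, exon coverage. The rest was done in Python 3.11.15 (pandas 2.3.3, NumPy 2.4.6, matplotlib 3.10.9, SciPy 1.17.1).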

Additional observations from a re-analysis of the deposited data

How the results depend on the processing

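STEAP1, PSENEN and ATP5O, which passed as reported, kept their direction under every alternative run. For the markers and the genes chosen after their values were seen, single values under the alternatives are not given. Of the 10 genes, 1 (STEAP1) passed as reported and also with FPKM, intron-sharing transcripts, median-of-ratios scaling, no trend and exon coverage. None (0) passed with a pseudocount of 0.1 or 5, without a filter, with a minimum of 5 TPM, with assembled bases, with TPM rescaled to its nominal total, with quantile normalization, with the replicate block, or without any 1 library (0 to 0). In the first 7 of these settings STEAP1 had log2 changes of 0.72 to 1.28 and an adjusted p of 0.0510 to 0.0725. With the minimum of 5 TPM, STEAP1 entered the test only through the PSENEN siRNA libraries, where it is high. In the 5 settings where it passed, its adjusted p was 0.0258 to 0.0493. Of all genes, 64 passed as reported, 28 with a pseudocount of 0.1, 34 with TPM rescaled to its nominal total, 145 with exon coverage, and 11 to 21 without 1 library. The split was 20 higher and 44 lower as reported, 23 and 27 with FPKM, 21 and 28 with median-of-ratios scaling and 17 and 28 with quantile normalization. Across all genes, deviations of same-numbered libraries correlated at -0.0489, 6.51e-05 and -0.0142. For TFRC, library 3 of both groups stood apart, with 68.5% (PSENEN siRNA) and 80.9% (mismatch siRNA) of TPM on ENST00000360110. Whether same-numbered libraries form pairs is not known here. With the replicate block 1 gene passed, and STEAP1 had an adjusted p of 0.349. No list gene passed under any alternative. The cause of these shifts was not tested. Without counts, counting error could not be set beside the low levels of STEAP2 and STEAP4.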
